A study of Mus musculus with 2 samples.

Results

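The MHC class II presentation machinery was followed across the 2 mTEChi libraries of the series as 10 of the 23003 genes counted. The members were the transcripts whose RefSeq identifier maps to H2-Aa, H2-Ab1, H2-Eb1, Cd74, Ciita, H2-DMa, H2-DMb1, H2-Oa, H2-Ob or Ctss, and each gene was represented by its transcript of highest read number, Ctr and knockdown added. All 10 were among the 16455 genes that reached 50 reads when both libraries were added. Medullary thymic epithelial cells with high surface MHC class II (mTEChi) came from 1 lentigenic mouse, grown from a B6 oocyte that received a lentivector with 3 shRNAs against Clp1 and the ZsGreen reporter under the doxycycline-inducible TRE3G promoter, and the TetOn3G transactivator under the EF1 promoter. From 3 weeks of age the mouse was fed doxycycline at 2 g/kg food for 2 weeks, so both groups came from the same treated animal. Whether GFP- cells carried the same integrations as GFP+ cells was not tested. GFP+ cells, which expressed the shRNAs, made the Clp1 knockdown library and GFP- cells of the same thymus made the Ctr library, with 1 library per group. No difference below therefore has a replicate check, no test between groups was possible, and every interval covers counting error only, since reads amplified by PCR without molecular identifiers are not independent molecules. Clp1, the targeted gene (NM_133840), had 1573 reads in Ctr and 812 in knockdown mTEChi, which was 39.7% of the Ctr level after scaling (95% interval 36.4% to 43.2%).

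The class II genes were present at high levels in both libraries, and none of the 10 differed by 2-fold or more. They took 2.24% of all counted reads in Ctr (exact 95% interval 2.23% to 2.24%) and 2.41% in knockdown mTEChi (2.40% to 2.41%). A 2-fold call, higher or lower, was made when the ratio of scaled reads was at least 2, the 95% counting interval excluded 0 on the log2 scale and the gene had at least 50 reads. By this rule 0 of 10 members were higher in knockdown mTEChi, against 19.0% of all genes, and 0 of 10 were lower, against 18.6% of all genes (37.7% in either direction). Scaling by general thymic epithelial genes gave 15.2% higher and 23.8% lower over all genes, and again 0 and 0 of the members. The members' median log2 ratio of knockdown over Ctr was 0.07, with a range from -0.46 for H2-Oa to 0.39 for Cd74, and 5 members lay above 0 and 5 below. The median of all genes was 0.00. Ratios near 0 were also common elsewhere, as 35.7% of all genes lay within 0.46 of 0 on the log2 scale.

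MHC class II molecules are pairs of an alpha and a beta chain that display peptides to CD4+ T cells, and on mTEC they present self-antigens, including those induced by Aire, to developing thymocytes. The chains assemble with the invariant chain Cd74, whose remnant CLIP fills the groove until the protease Ctss has trimmed Cd74 and the editor H2-DM exchanges CLIP for other peptides. H2-O inhibits H2-DM. Ciita, the class II transactivator, binds no DNA itself and acts through factors assembled on the X and Y boxes of class II promoters (RFX, CREB and NF-Y). B6 mice lack the alpha chain of I-E, so that the H2-Eb1 chain has no usual partner in these cells.

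The promoters of 7 of the 10 members were in the RefSeq table of start regions (GRCm38.p6, 250 bases before to 50 after each start, 8 windows), and those of H2-Ab1, Cd74 and Ciita were not analysed here. The 5 runs below are shown because they hold X box letters like those Ciita's partners bind in class II promoters, with the 5 letters searched for in capitals, and a match is a description and not a shown site. The search, on both strands, was for GNAAC followed after 20 to 32 bases by the Y box letters GATTGG, a form chosen after these promoters had been read.
H2-Aa: gctgGCAACtttgacgtcatcacaagag
H2-Eb1: actaGCAACtgatgatgctggactcctt
H2-DMb1: cctaGTAACtgatgatgctaggctgatt
H2-Oa: cccaGCAACaaacccattatctcagaga
H2-Ob: cctaGCAACaaatgatgcaaagtcttcg
On GRCm38.p6 the runs lie at chr17:34287881-34287908 (minus strand) for H2-Aa, chr17:34305772-34305799 (plus) for H2-Eb1, chr17:34153093-34153120 (plus) for H2-DMb1, chr17:34092299-34092326 (plus) for H2-Oa and chr17:34238814-34238841 (plus) for H2-Ob. The capitals began 76 to 94 bases before the start site and the Y box letters 44 to 62 bases before it. The pair of motifs occurred in 5 of the 7 members, and in 230 of 27025 genes (0.851%) of the same table. No match was found in the windows of H2-DMa and Ctss. The 5 genes that share this arrangement had log2 ratios of -0.46 (H2-Oa), -0.21 (H2-Aa), -0.00 (H2-DMb1), 0.28 (H2-Ob) and 0.34 (H2-Eb1), so that genes with the same promoter arrangement lay on both sides of 0.

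Levels of different genes were compared per length, as RPKM (reads scaled to transcript length and to library total) over the counted parts of the transcript. In Ctr the order was Cd74 at 5374, H2-Ab1 at 5070, H2-Aa at 4874, H2-Eb1 at 969, H2-Oa at 308, H2-DMb1 at 180, H2-DMa at 125 (coding part only), Ctss at 96.0, Ciita at 27.0 and H2-Ob at 21.5 RPKM. The order was the same in knockdown mTEChi, at 6942, 4895, 4156, 1210, 222, 177, 112, 106, 30.2 and 25.7. The exact Poisson intervals of neighbours in this order were separate in both libraries, apart from H2-DMa (108 to 116) and Ctss (104 to 109) in knockdown mTEChi. The invariant chain and the I-A chains were thus at the top of the order, and the transactivator and the beta chain of H2-O at the bottom. Of the reads of all members, 95.3% in Ctr and 95.9% in knockdown mTEChi belonged to 4 genes, namely H2-Aa, H2-Ab1, H2-Eb1 and Cd74.

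**Figure D1:**
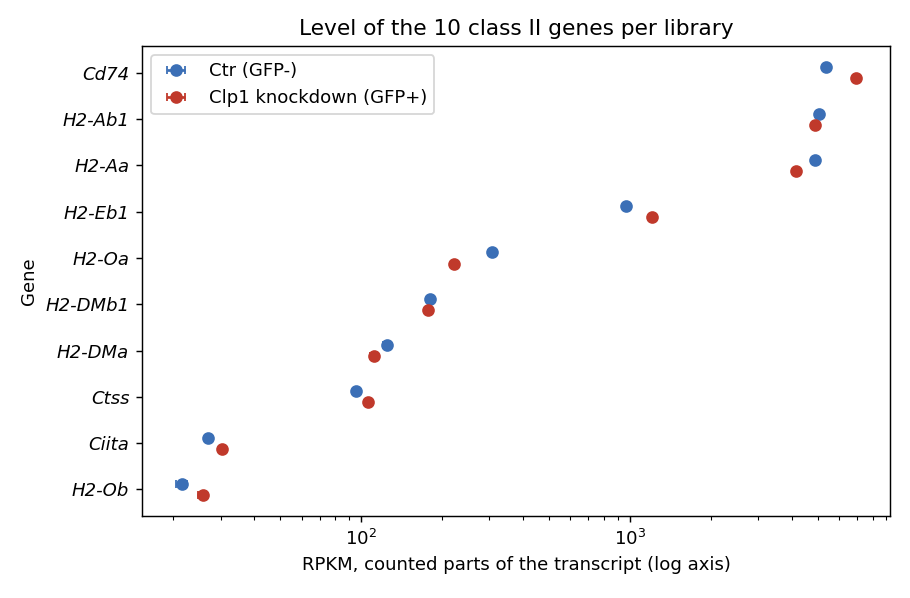
Level of each of the 10 class II genes in RPKM (log axis), with Ctr in blue and the Clp1 knockdown library in red and exact 95% Poisson intervals as bars, mostly smaller than the points. The order from Cd74 to H2-Ob is the same in both libraries, and the points of one gene lie close together.

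The invariant chain was the member with the most reads. Cd74 (NM_001042605, mm9 chromosome 18, 60963502 to 60972300, plus strand) had 230007 reads in Ctr and 391062 in knockdown mTEChi, and among 21381 ranked genes it was in place 2 per length in Ctr and in place 1 in knockdown mTEChi. Its scaled level in knockdown mTEChi was 131% of that in Ctr, a log2 ratio of 0.39 (0.38 to 0.39). It took 0.808% of the counted reads in Ctr and 1.04% in knockdown mTEChi. Its share alone thus differed by more than the share of all members together.

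Mouse Cd74 is made as a shorter p31 and a longer p41 form, and the longer one has an extra exon encoding a domain that binds cathepsin L. This exon of 192 bp (mm9 chromosome 18, 60970948 to 60971139) had 9287 reads in Ctr and 13714 in knockdown mTEChi, while the earlier exons that both isoforms hold had 93586 and 159140. Per base, reads in the extra exon were 0.329 of those in the shared earlier exons in Ctr and 0.286 in knockdown mTEChi. The log2 change of this ratio was -0.20 (-0.24 to -0.16), and it was -0.23 (-0.26 to -0.19) with the last exon as the denominator. The extra exon thus made a smaller part of Cd74 reads in knockdown mTEChi by either measure, in 1 library per group. For scale, changes of earlier exons against the last exon ran from -0.30 to 0.21 (10th to 90th percentile) across 2235 genes, described below. Whether the change in Cd74 exceeds that of single exons of other genes was not tested.

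The chains of I-A, the class II molecule of B6 mice, had log2 ratios within 0.21 of 0. H2-Aa (NM_010378), the alpha chain, lies on mm9 chromosome 17 from 34406276 to 34424772 on the minus strand and had 148783 reads in Ctr and 167275 in knockdown mTEChi. After scaling, its level in knockdown mTEChi was 86.5% of that in Ctr, a log2 ratio of -0.21 (-0.22 to -0.20). H2-Ab1 (NM_207105), the beta chain, lies beside it from 34400154 to 34406363 on the plus strand and had 180054 and 228882 reads, for a log2 ratio of -0.03 (-0.04 to -0.02). The gene bodies overlap by 88 bp at their ends on opposite strands, and the sources used here do not say whether counting used strand. Reads of H2-Aa per read of H2-Ab1 were 0.826 in Ctr and 0.731 in knockdown mTEChi, a log2 change of -0.18 (-0.19 to -0.16). This change does not depend on how the libraries are scaled. When a trend of the log2 ratio on transcript base composition was subtracted it was -0.57, with H2-Aa at -0.18 and H2-Ab1 at 0.39.

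H2-Eb1 (NM_010382, 34442828 to 34453144, plus strand), the beta chain of I-E, had 48021 reads in Ctr and 79102 in knockdown mTEChi. Its log2 ratio was 0.34 (0.33 to 0.36). Against the alpha chain of I-A its reads were 0.323 in Ctr and 0.473 in knockdown mTEChi, a log2 change of 0.55 (0.53 to 0.57) and of 0.78 with the base composition trend subtracted. The corresponding change for Cd74 against H2-Aa was 0.60 (0.58 to 0.61), from 1.55 to 2.34 reads of Cd74 per read of H2-Aa, and 0.42 (0.41 to 0.43) against H2-Ab1. With that trend subtracted these were 0.96 and 0.39. Cd74 and H2-Eb1 thus had higher reads relative to the I-A chains in knockdown mTEChi, within 1 pair of libraries.

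Ciita (NM_007575, mm9 chromosome 16, 10480237 to 10527657, plus strand) had 4097 reads in Ctr and 6043 in knockdown mTEChi. Its log2 ratio was 0.18 (0.12 to 0.24), and it was -0.06 when the libraries were scaled by general thymic epithelial genes and 0.57 when a trend of the log2 ratio on transcript base composition was subtracted. Ciita is transcribed from several promoters with different first exons. The 5'UTR of NM_007575 (94 bp, 10488372 to 10488465), which 1 GENCODE transcript matched, lies 8.135 kb downstream of the most upstream annotated start and had 22 reads in Ctr and 32 in knockdown mTEChi. Per base this was 0.270 and 0.271 of the reads in the coding exons before the last one, a log2 change of 0.01 (-0.78 to 0.79). With so few reads, a difference within this interval was not detectable at this depth. The other RefSeq isoforms of Ciita had log2 ratios of 0.18 (NM_001243760) and 0.19 (NM_001243761). They share nearly all reads with NM_007575, so these values are not separate evidence. NM_007575 had more reads than NM_001243760 by 49 in Ctr and 90 in knockdown mTEChi, and than NM_001243761 by 55 and 47.

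The editor chains had ratios close to 1. H2-DMa (NM_010386, chromosome 17, 34272127 to 34276046) had 3985 reads in Ctr and 4789 in knockdown mTEChi, a log2 ratio of -0.11 (-0.17 to -0.05). H2-DMb1 (NM_010387, 34290017 to 34297168) had 6765 and 8789 reads, for a log2 ratio of -0.00 (-0.05 to 0.05). Of the 50-base windows of H2-DMb1, 27.1% also occur in its neighbour H2-DMb2, so reads of the pair may have been split, and H2-DMb2 had 8251 and 10694 reads with a log2 ratio of -0.00 as well. No such window was shared by another member. Reads of H2-DMa per read of H2-DMb1 were 0.589 in Ctr and 0.545 in knockdown mTEChi, a log2 change of -0.11 (-0.19 to -0.04), and of 0.01 with the base composition trend subtracted.

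The chains of H2-O, the inhibitor of H2-DM, lay on opposite sides of 0, but with the base composition trend subtracted they were at -0.09 (H2-Oa) and 0.01 (H2-Ob). The alpha chain H2-Oa (NM_008206, chromosome 17, 34229285 to 34232179) had 9721 reads in Ctr and 9197 in the deeper knockdown library, which after scaling was 72.8% of the Ctr level (70.7% to 74.9%), a log2 ratio of -0.46 (-0.50 to -0.42). The beta chain H2-Ob (NM_010389, 34375848 to 34390850) had 1681 and 2657 reads, for a log2 ratio of 0.28 (0.19 to 0.37). There were 14.3 times as many reads per length of H2-Oa as of H2-Ob in Ctr and 8.62 times as many in knockdown mTEChi. The log2 change of their read ratio was -0.74 (-0.84 to -0.64), and it was -0.10 with the base composition trend subtracted. That of H2-Oa against H2-DMa was -0.35 (-0.42 to -0.27), and -0.32 with the same correction.

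Ctss (NM_021281, mm9 chromosome 3, 95330708 to 95360325), cathepsin S, had 3812 reads in Ctr and 5490 in knockdown mTEChi. Its log2 ratio was 0.15 (0.09 to 0.21). In all, Cd74, H2-Eb1 and H2-Ob lay above 0 and H2-Aa and H2-Oa below 0 under every alternative scaling and correction that was tried. The sign of H2-Ab1, H2-DMa, H2-DMb1, Ciita and Ctss changed under scaling by epithelial genes or subtraction of a trend on base composition.

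**Figure D2:**
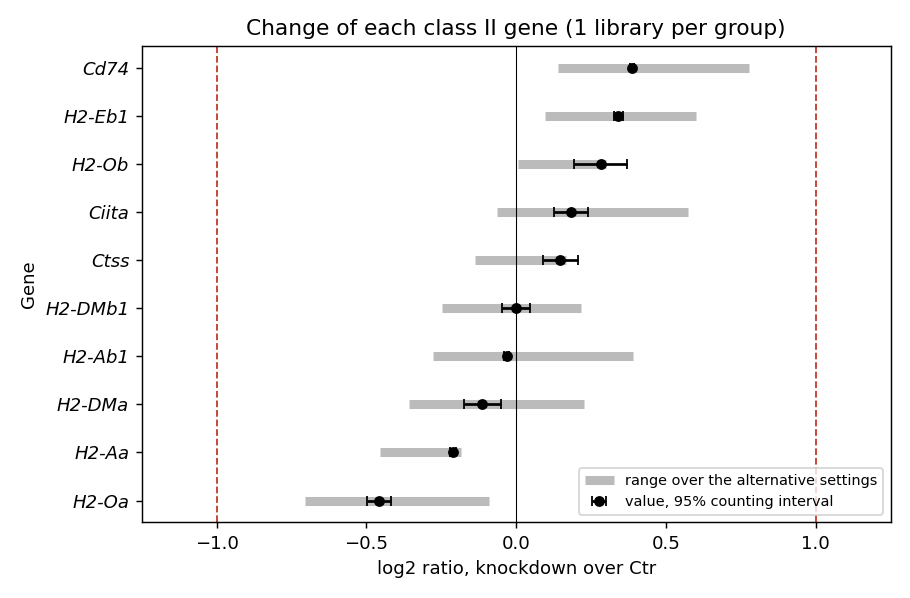
Log2 ratio of knockdown over Ctr for each class II gene (points, 1 library per group) with its 95% counting interval (black bars) and the range over the alternative settings (grey bars). The points run from -0.46 for H2-Oa to 0.39 for Cd74, and neither points nor grey bars reach the dashed 2-fold lines.

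The members are among the more abundant genes, where fewer genes passed the 2-fold line. Each member had more than 1000 reads over both libraries, and among the 8454 genes with at least 1000 reads 11.3% were 2-fold higher and 9.77% lower in knockdown mTEChi, 21.1% in all. Within this set 47.3% of genes lay as close to 0 as the members did. The median log2 ratio of these genes was 0.02. A set of 7 of the 10 members lies within 224 kb of mm9 chromosome 17 (34229285 to 34453144), and these neighbours spanned log2 ratios from -0.46 (H2-Oa) to 0.34 (H2-Eb1).

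**Figure D3:**
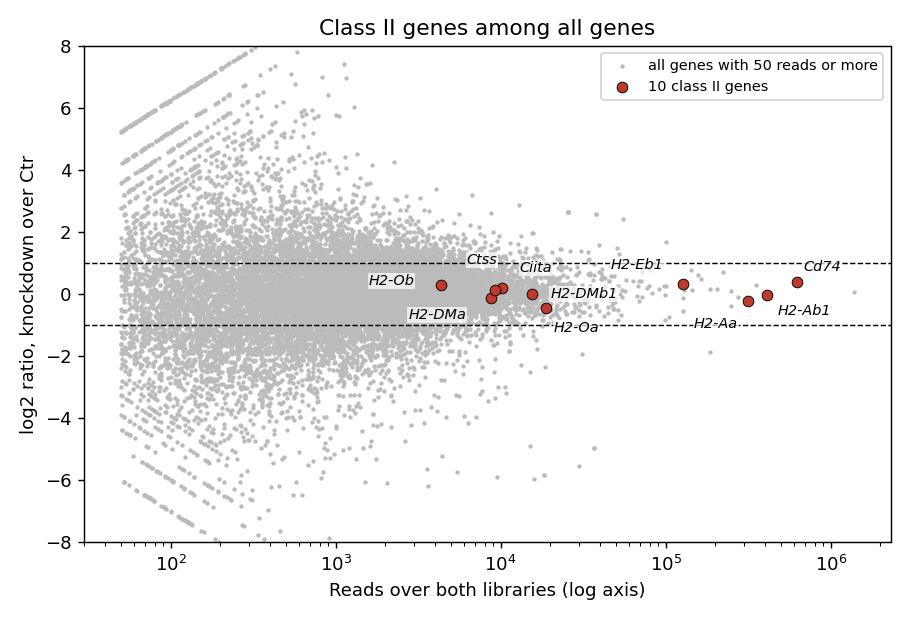
Log2 ratio of knockdown over Ctr against reads over both libraries (log axis) for all genes of 50 or more reads (grey) and the 10 class II genes (red), with dashed lines at 2-fold. Genes with 0 reads in a library and those beyond the axis limits are not drawn. The class II genes lie at the high-read end between -0.46 and 0.39.

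Clp1 is part of the complex that cleaves and polyadenylates pre-mRNA, and the study split transcripts at the most proximal poly(A) site of the last exon. Within most members' transcripts the earlier exons and the last exon gave similar ratios. In H2-Oa the earlier exons had a log2 ratio of -0.45 and the last exon -0.44, and in Cd74 they had 0.37 and 0.41. The log2 change of earlier exons relative to the last exon was between -0.07 and -0.01 for 7 of the 9 members with both parts. It was 0.28 (0.10 to 0.47) for H2-Ob and 0.21 (0.09 to 0.34) for Ctss. Across 2235 genes with at least 1000 reads in each part, both libraries added, the median of this change was -0.02. The central range from the 10th to the 90th percentile was -0.30 to 0.21. The value of H2-Ob, from 611 and 1086 reads in the earlier exons, thus lay beyond that range. The 5'UTR of Ctss, with 59 reads in Ctr and 43 in knockdown mTEChi, had a log2 ratio of -0.83 (-1.44 to -0.24). The earlier exons of Ctss had 0.25 (0.18 to 0.33).

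Only H2-Eb1 and Ciita of the members had a distal 3'UTR in the deposited annotation. The d3'UTR ratio, the read density of the distal 3'UTR over that of the rest of the last exon, was 0.0108 in Ctr and 0.0127 in knockdown mTEChi for H2-Eb1, from 251 and 494 distal reads. Its log2 change was 0.24 (0.01 to 0.47). For Ciita it was 0.156 and 0.181, from 225 and 393 distal reads, with a log2 change of 0.22 (-0.05 to 0.49). Neither passed 2-fold, against 13.9% of 5550 transcripts that were 2-fold higher and 12.6% that were 2-fold lower in knockdown mTEChi. Nearly all last-exon reads of H2-Eb1 thus lay upstream of the proximal site in both libraries.

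**Figure D4:**
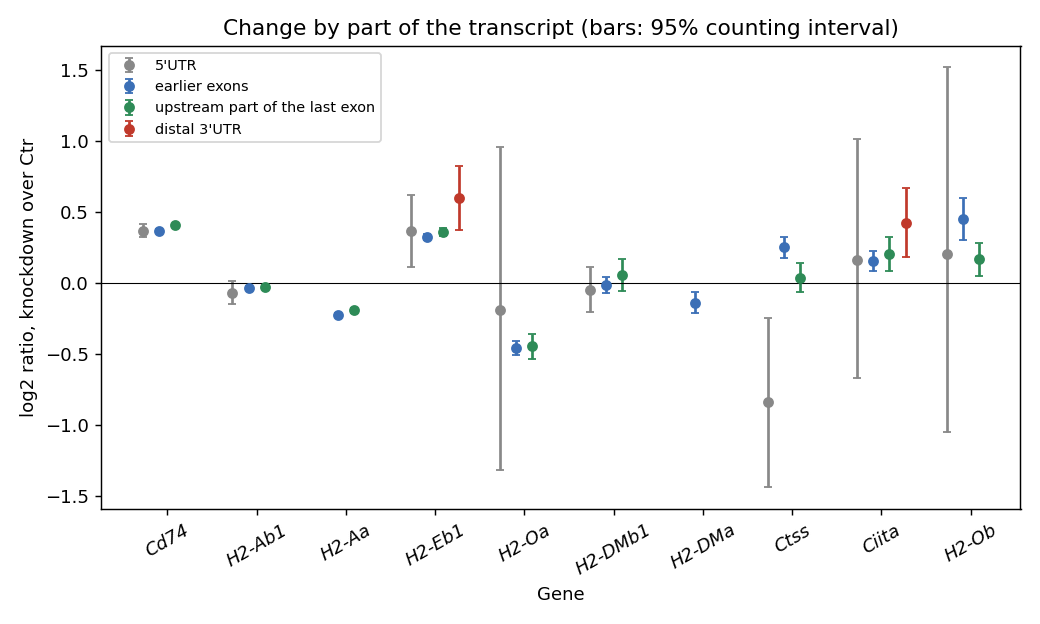
Log2 ratio of knockdown over Ctr for the parts of each member's transcript (5'UTR grey, earlier exons blue, upstream part of the last exon green, distal 3'UTR red), with 95% counting intervals as bars. Earlier and last exons of a gene lie near each other, with the widest gaps for H2-Ob and Ctss, and the 5'UTR of H2-Aa had 0 reads and is not drawn.

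Further genes of the class II region were counted beside the members. H2-Eb2 (NM_001033978), a further beta chain gene, had 1596 reads in Ctr and 3530 in knockdown mTEChi, a log2 ratio of 0.77 (0.68 to 0.85). Its parts differed, with 0.33 (0.18 to 0.49) in the earlier exons, 1.08 (0.97 to 1.20) in the last exon upstream of the proximal site and 0.42 (0.18 to 0.67) in the distal 3'UTR. Its d3'UTR ratio was 0.4998 in Ctr and 0.316 in knockdown mTEChi, a log2 change of -0.66 (-0.93 to -0.39). Btnl2, a butyrophilin-like gene next to the class II genes, had 588 and 488 reads, for a log2 ratio of -0.65 (-0.82 to -0.47). With H2-DMb2 above, 0 of 3 were called, and 2 listed symbols, H2-Ea and H2-Ea-ps, were not analysed here.

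Among the factors of class II promoters, 2 of 14 were 2-fold higher and 0 were lower in knockdown mTEChi, with a median of -0.08. Creb1, a factor that binds X box regions, had 953 reads in Ctr and 3314 in knockdown mTEChi and a log2 ratio of 1.42 (1.32 to 1.52), which was 0.95 with the base composition trend subtracted, where 0 of the 14 were called higher. The RFX subunits, the core of the X box complex, were not called, at -0.04 for Rfx5, -0.57 for Rfxank and -0.14 for Rfxap. Of 10 genes of the interferon gamma pathway 1 was higher and 0 were lower (0 higher under scaling by epithelial genes or with the base composition trend subtracted), with a median of 0.18.

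Among 16 endolysosomal proteases and inhibitors, 0 were higher and 2 were lower, with a median of -0.33. The thymus-specific serine protease Prss16 had 5926 reads in Ctr and 2785 in knockdown mTEChi, a log2 ratio of -1.47 (-1.53 to -1.40). Lgmn, an asparagine endopeptidase, had 815 and 507 reads and a log2 ratio of -1.06 (-1.23 to -0.90), and its call was lost with the base composition trend subtracted (-0.996). Prss16 is also a marker of cortical thymic epithelium (cTEC), and 6 of 10 cTEC markers were lower and 0 higher, with Psmb11, the thymoproteasome subunit, at 3655 and 694 reads (-2.78). The 6 include Prss16 itself and Cd83. Tbata (0.32), Ctsl (0.14), Ccl25 (0.08) and Enpep (0.07) of the same list lay above 0 and were not called. With Prss16 included, the list summed to 1838 CPM (counts scaled to the library total) in Ctr and 1361 in knockdown mTEChi. The part of cTEC in the value of Prss16 was not tested.

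Of 14 genes of class II trafficking and turnover 2 were higher and 2 were lower, with a median of 0.30. Cd83, which helps to keep class II on the surface, had 7897 reads in Ctr and 3454 in knockdown mTEChi, a log2 ratio of -1.57 (-1.63 to -1.51). Of the ubiquitin ligases on the list, Marchf1 had 92 and 43 reads, for a log2 ratio of -1.48 (-2.03 to -0.94). Marchf8 had 1137 and 1767 reads and was not called, at 0.26 (0.15 to 0.37). The kinesin Kif5b (2525 and 7746 reads, 1.24) and the lysosomal membrane protein Lamp2 (5747 and 16268 reads, 1.12) were higher. Both calls were lost under scaling by epithelial genes (0.99 and 0.88) and with the base composition trend subtracted (0.80 and 0.62), and that of Lamp2 also with its transcript of fewest reads (0.94). Cd83 is on the cTEC list as well.

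The class I machinery is listed here as the other presentation pathway, and 2 of its 17 genes were higher and 0 lower, with a median of 0.17. These were the chaperones of the endoplasmic reticulum Pdia3 (8096 reads in Ctr and 31514 in knockdown mTEChi, 1.58) and Canx (5080 and 17960 reads, 1.44), which serve many glycoproteins besides class I. The class I chains H2-K1 and H2-D1 and their partner B2m were not called, at 0.17, 0.09 and 0.30. Of 17 macroautophagy genes, a route by which cytosolic proteins reach class II compartments, Atg16l1 was higher (329 and 1053 reads, 1.30) and Atg9a lower (1851 and 801 reads, -1.59), with a median of -0.11. Under scaling by epithelial genes 4 of these genes were lower, and 2 with the base composition trend subtracted. Over the 7 pathway lists, 7 of 89 genes were higher and 5 lower (4 and 10 under scaling by epithelial genes), with a median of -0.01. The shares over all genes with at least 50 reads were 19.0% and 18.6%. Most of the 89 genes had at least 1000 reads, and over all such genes the shares were lower, at 11.3% and 9.77%.

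**Figure D5:**
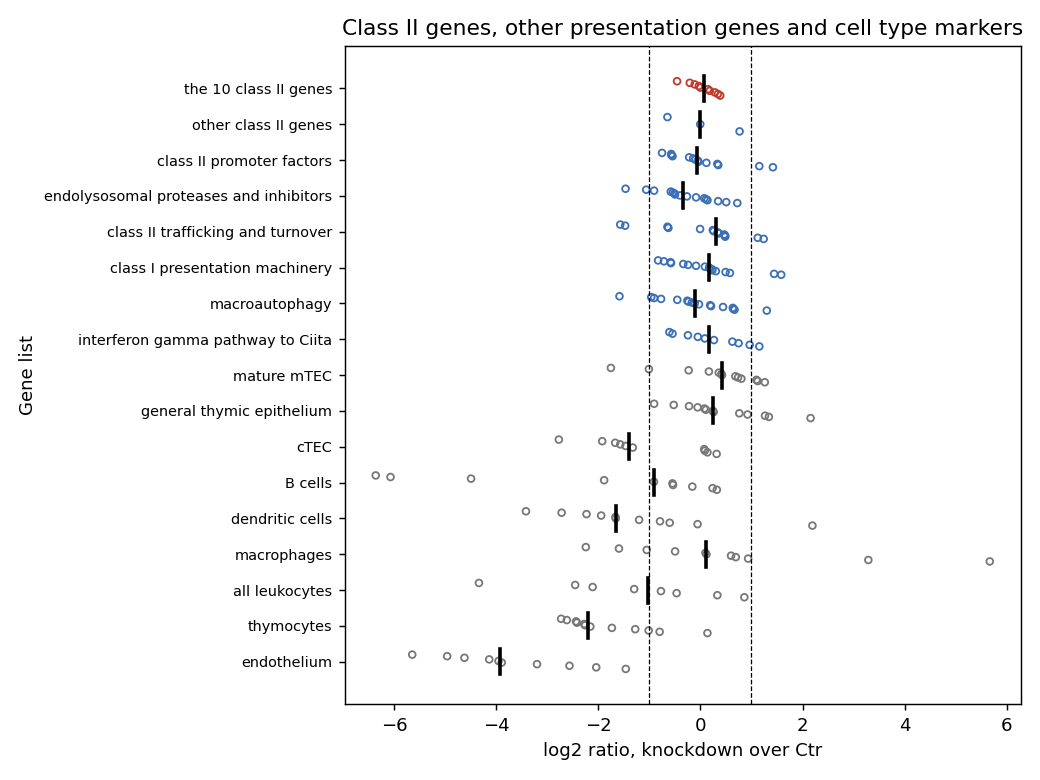
Log2 ratio of knockdown over Ctr for each gene with at least 50 reads of the class II genes (red), the other presentation lists (blue) and the cell type marker lists (grey), with the list median as a black bar and dashed lines at 2-fold. The class II genes form the narrow row at the top, while the endothelial and thymocyte markers lie mostly below -1. Genes with 0 reads in a library are not drawn.

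The sort for CD45-negative, class II-high cells was checked against markers. For Ly51 the paper's methods call these cells negative, while its gating figure for this mouse gives low to intermediate levels. The mTEC markers Aire (7462 reads in Ctr and 8264 in knockdown mTEChi, -0.23) and Cd80 (916 and 1527, 0.36) and the epithelial marker Foxn1 (4600 and 5754, -0.06) were present in both libraries, while Epcam was called higher in knockdown mTEChi (7928 and 26108, 1.34). Of 13 mature mTEC markers 3 were higher and 2 lower (median 0.42), and of 13 general thymic epithelial markers 3 were higher and 0 lower (median 0.25). For all marker lists, the shares over all genes with at least 50 reads were 19.0% higher and 18.6% lower. With at least 1000 reads they were 11.3% and 9.77%. Counts near these shares, such as those of the mature mTEC and macrophage lists, are not a result about the list. In a bulk library, fewer cells of a type and less RNA per cell cannot be told apart.

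Markers of other cells known to express class II genes had reads in both libraries, although the sort was for CD45-negative cells, and the source of these reads was not tested. Of 11 B cell markers tested 0 were higher and 5 lower (median -0.91), with Cd79a at 399 reads in Ctr and 23 in knockdown mTEChi. Bank1 had 85 reads in Ctr and 0 in knockdown mTEChi. It was 36.8-fold lower when the knockdown library is given the floor of 3 reads, a value that leaves out counting error. The counting interval of its log2 ratio had an upper end of -4.87, which is a smaller difference. Fcer2a (1075 and 1746 reads, 0.32) and Cr2 (304 and 466 reads, 0.24) of the same list lay above 0 and were not called. The list summed to 469 CPM in Ctr and 388 in knockdown mTEChi, and to 129 and 87.6 without Spib, a factor that mTEC also express, left out after its value was seen. Of 11 dendritic cell markers 1 was higher and 7 lower (median -1.66), with Itgax at 321 and 39 reads and Flt3 at 1094 and 450, and their sum was 272 and 114 CPM. Of 11 macrophage markers 2 were higher and 3 lower (median 0.12), with Adgre1 at 554 and 347 reads and Csf1r at 238 and 500. The higher ones were Mrc1 (11 and 728 reads, 5.67) and Mertk (7 and 89 reads, 3.29). Besides Adgre1, Fcgr1 (73 and 20 reads, -2.25) and Itgam (377 and 162 reads, -1.60) were lower. The list summed to 434 CPM in Ctr and 589 in knockdown mTEChi. Lyz2 had the most reads of this list, 8041 and 15840, and so weighed most in its sum. Timd4, with 0 reads in Ctr and 11 in knockdown mTEChi, was under the minimum.

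General leukocyte genes and markers of thymocytes and endothelium differed as well. Of 8 general leukocyte genes 0 were higher and 4 lower (median -1.04), with Ptprc, which encodes CD45, at 1987 reads in Ctr and 1050 in knockdown mTEChi, and Cd52 at 12869 and 9783. Lcp1 (7415 and 17495 reads, 0.86) and Vav1 (630 and 1030 reads, 0.33) of the same list lay above 0 and were not called. The list summed to 1940 CPM in Ctr and 1463 in knockdown mTEChi. Of 12 thymocyte markers 10 were lower (median -2.21, Cd3e at 874 and 237 reads, Cd3d at 1113 and 270), summing to 512 and 136 CPM. All 10 endothelial markers tested were lower (median -3.93, Pecam1 at 5924 and 437 reads, Cdh5 at 873 and 46), summing to 761 and 77.4 CPM. The 10 class II genes summed to 22376 CPM in Ctr and 24072 in knockdown mTEChi. The part of these other cells in the members' ratios was not tested.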

How the data were processed

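CD45-negative, I-A/E-high cells of 1 mouse were sorted by GFP, with Ly51 negative by the paper's methods and low to intermediate by its gating figure. Poly-A libraries from the Smarter and Nextera kits were sequenced from a single end. Per the submitters' processing notes, the authors aligned reads to mm9 with Bowtie 1.0.0, counted them with bedtools and compared libraries with DESeq. The deposited values are raw counts of reads per RefSeq transcript (30794) and per transcript part (27567 transcripts), without normalization. A further deposited table holds the authors' own comparison (size-factor normalized values, folds and p-values) and was not used.

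Symbols came from a RefSeq table of GRCm38.p6 (30216 transcripts matched) and gene coordinates from NCBIM37 (mm9) with GENCODE vM1. The Ctr library held 28464803 counted reads and the knockdown library 37524730, and isoforms share reads. Counts were divided by median-of-ratios size factors (0.877 and 1.14). For log2 ratios, 95% intervals were taken from the exact (Clopper-Pearson) interval of the knockdown fraction of a gene's reads. The d3'UTR ratios (0.5 reads added, at least 10 last-exon reads) have exact conditional intervals, and ratios of 2 genes or parts have log-normal intervals. The deeper library gives the lower floor (3 reads, 2.63 against 3.42 scaled reads).

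The members and all lists were chosen with earlier results of these data known. Named were the members, other class II genes with reads, up to 4 called genes per pathway list with up to 2 of the other direction, the first 2 markers per list with 50 reads, and Clp1. Of the genes this rule names, 2 are not reported here. The RFX subunits, H2-K1, H2-D1, B2m, Marchf8, Bank1, Fcer2a, Cr2, Lyz2, Timd4 and Spib were named after their values were seen. So were Lcp1, Vav1, Mrc1, Mertk, Fcgr1, Itgam, Tbata, Ctsl, Ccl25 and Enpep. Alternatives were other scalings (TMM from edgeR 4.0.16, upper quartile, total, epithelial genes), thinning, a base composition trend, other transcripts, minimums and pseudocounts. Scripts ran in Python 3.11.15 and R 4.3.3 and were tested on simulated data.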

Additional observations from a re-analysis of the deposited data

How the results depend on the processing

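No paired analysis was possible because each group has 1 library, and for the same reason no replicate could be left out. The counts of 0 members higher and 0 lower held under every alternative tried. Scaling by general thymic epithelial genes shifted all log2 ratios by -0.25, while TMM, upper quartile and total counts shifted them by 0.00 to 0.02 either way. The members' median became -0.17 under the epithelial scaling, 0.22 with the base composition trend subtracted and 0.16 with every transcript counted. The pooled pathway lists then had 4 higher and 10 lower genes under the epithelial scaling, 3 higher with the trend subtracted and 15 higher with every transcript counted. With a minimum of 1000 reads, added after seeing the data, the pooled markers of other cell types had 0 higher and 28 lower genes, against 3 and 45 of 73. The members' share of reads was 2.42% in Ctr and 2.56% in the knockdown library without the 10 most abundant transcripts, and 3.17% and 3.38% of the reads of 1 transcript per gene. Of 90 single-gene values of the members under 9 settings, 57 stayed within the counting interval and 33 moved beyond it, and no member was called under any of them. The cause of these shifts was not tested. The values of single named genes with every transcript counted were not run, since a gene then has several values.

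The medians of the class I, interferon gamma and macrophage lists changed sign under the epithelial scaling, those of the other class II genes and macroautophagy with the trend subtracted, that of the other class II genes also under the upper quartile, and those of trafficking, mature mTEC and cTEC with every transcript counted. The 1 library per group limits every value. Read ratios of member pairs with the trend subtracted were added after seeing the data.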
